A study of Rattus norvegicus with 18 samples.

Results

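rno-miR-296 and rno-miR-298 are miRNAs whose hairpins lie next to each other at the imprinted Gnas locus of the rat, and they were followed here through cortical development. The 2 miRNAs are members of a table of 157 sequences with given bases, of which 30 came from the primers of the study, 26 from its list of nucleotide changes and the rest from its candidate miRNAs. A read was assigned to a miRNA when it was identical to the mature sequence over their common length, began within 3 nt of its 5' end and ended at most 3 nt past its 3' end. Small RNA of Sprague Dawley rats was sequenced at 8 stages, the embryonic days E10, E13 and E17 and the postnatal days P0, P3, P7, P14 and P28. Birth (P0) was represented by 2 tissue samples (P0 replicate 1 and P0 replicate 2) and the other stages by 1, and each of the 9 tissue samples was sequenced in 2 runs, giving 18 libraries. According to the labels the tissue was forebrain for the first pair of stages and somatosensory cortex from E17, whereas the methods of the study give whole cortex and then dorsolateral cortex, so that stage and tissue cannot be told apart between these groups. No animal was treated, no strain other than Sprague Dawley was used, and whether animals were pooled was not stated. Outside P0 a stage has no biological replicate, and the runs are technical replicates of 1 RNA.

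miRNAs are cut as a duplex from a hairpin precursor, and 1 strand of the duplex is usually retained to guide repression of mRNAs that pair with its seed (bases 2 to 8), while the opposite arm is mostly degraded. The Gnas locus encodes the stimulatory G protein alpha subunit and several transcripts expressed from only 1 parental allele. In the mouse, miR-296 and miR-298 are processed from an antisense transcript of this locus that is expressed from the paternal allele. miR-296 has also been studied for a role in the growth of blood vessels. After cutting, the 3' end of a miRNA can be trimmed by exonucleases or extended by enzymes that add A or U without a template, which gives variants (isomiRs) of 1 sequence.

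The mature sequences below are shown because every level and end position refers to them. They are given 5' to 3' from RefSeq (build GRCr8) with the seed in capitals, and the bases from the primers of the study were identical to RefSeq for both members.
rno-miR-296: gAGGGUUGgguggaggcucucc
rno-miR-298: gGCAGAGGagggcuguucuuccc
rno-miR-296-5p: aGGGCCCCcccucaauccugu
rno-miR-298-3p: aGGAACUAgccuucucucugcu
rno-miR-296 (22 nt, called rno-miR-296-3p in RefSeq) is the 3' arm of its hairpin and lies at chr3:183470079-183470100, minus strand. rno-miR-298 (23 nt, rno-miR-298-5p in RefSeq) is the 5' arm of its hairpin and lies at chr3:183470571-183470593 on the same strand. The last pair of lines are the opposite arms. The 4 seeds differ from each other, and 0 other rat miRNA names of RefSeq share any of them. The list of nucleotide changes gave 5 bases of rno-miR-296 and 12 of rno-miR-298, and 5 and 12 of these were equal to the primer sequence.

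The hairpins are shown with both arms in capitals, because the bases that follow an arm decide whether a longer read could come from the precursor.
Mir296: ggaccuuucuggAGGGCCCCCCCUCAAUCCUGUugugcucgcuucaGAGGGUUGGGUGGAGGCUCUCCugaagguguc
Mir298: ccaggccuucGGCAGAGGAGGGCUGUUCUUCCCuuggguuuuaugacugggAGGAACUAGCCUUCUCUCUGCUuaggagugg
Mir296 (78 nt) spans chr3:183470069-183470146 and Mir298 (82 nt) spans chr3:183470522-183470603, with 375 bases between them. Both are annotated as miRNA genes on the minus strand. No other gene of the RefSeq table overlaps either hairpin, so the table places them in no exon or intron. In order along the chromosome the neighbours are Stx16, Npepl1, Mir296, Mir298 and Gnas, the first, second and last of which are protein-coding.

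The libraries held 4899010 to 16590379 clean reads, in tags of 18 to 30 nt in run 1 and 18 to 39 nt in run 2. The runs of a tissue sample differed for many miRNAs: the median size of the log2 difference between runs was 0.666 at P3 and 1.71 in P0 replicate 1, the extremes of the 9 tissue samples. E10 run 2 stood apart from the other libraries for the rno-miR-296 hairpin, as described below, and held the lowest share of 18-nt reads (2.21% of all reads). Marker miRNAs of other cell types also moved with stage. The 4 markers of mesenchyme, meninges and vessels summed to 31134 TPM (reads as a share of the clean reads of a library, scaled to 1e6) at E10 and 42142 TPM at E13, and to between 532 and 4138 TPM in the other tissue samples. At E10 and E13 the sum was mostly rno-miR-199a-3p (29748 and 40984 TPM). rno-miR-214-3p was highest at E13 and rno-miR-145-5p at E10. rno-miR-143-3p went another way and was highest at P14 (2352 TPM, against 1161 TPM at E10 and 961 TPM at E13). The 3 blood markers summed to 1169 TPM at E10 and to between 33.0 and 100.5 TPM elsewhere. The 3 neuronal markers were present throughout (21370 to 201888 TPM), as was rno-miR-9a-5p of neural progenitors (11234 to 66760 TPM). The 2 oligodendrocyte markers summed to between 22.8 and 10565 TPM. Both were highest at P28, where rno-miR-219a-2-3p held 10432 TPM and rno-miR-338-3p 133 TPM. The 3 muscle markers summed to between 13.2 and 1689 TPM, with rno-miR-133a-3p at 0 in P0 replicate 2 and P3. The highest sum, at P14, was mostly rno-miR-206-3p (1405 TPM). The liver marker rno-miR-122-5p ranged from 22.7 to 98.7 TPM. The part of these markers in the levels of rno-miR-296 and rno-miR-298 was not tested, and in bulk tissue fewer cells of a type and less RNA per cell cannot be told apart.

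Levels of both miRNAs were lowest at P28 in both runs. rno-miR-298 was abundant, with a mean over the 9 tissue samples of 2357 TPM, rank 20 of the 157 sequences. In run 1 its level was 5555 TPM at E10, 5326 at E13, 2573 at E17, 2582 and 1408 in the P0 tissue samples, 1712 at P3, 2816 at P7, 3414 at P14 and 523 at P28. In run 2 it was 6277 TPM at E10, 2200 at E13, 1122 at E17, 1236 and 1235 in the P0 tissue samples, 1604 at P3, 1212 at P7, 1369 at P14 and 254 at P28. E10 was thus highest and P28 lowest in each run, and the levels between E17 and P14 showed no common order in the 2 runs. The mean of the runs was 1615 ± 415 TPM at P0 (SD, n = 2), a range into which the single values of E17 (1848 TPM), P3 (1658 TPM) and P7 (2014 TPM) also fell. The level at E10 was 10.6-fold that at P28 in run 1 and 24.7-fold in run 2. From P14 to P28 the level was lower by a ratio of 6.53 in run 1 and 5.39 in run 2.

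rno-miR-296 had a mean level of 884 TPM, rank 41 of the 157 sequences. In run 1 its level was 4514 TPM at E10, 939 at E13, 296.3 at E17, 350 and 1276 in the P0 tissue samples, 1135 at P3, 203 at P7, 124 at P14 and 5.10 at P28. In run 2 it was 224 TPM at E10, 1962 at E13, 1704 at E17, 449 and 1023 in the P0 tissue samples, 748 at P3, 583 at P7, 357 at P14 and 15.9 at P28. The runs did not agree on the stage with the highest level, which was E10 in run 1 and E13 in run 2, where E10 was above P28 alone. At P28 the level rested on 51 and 263 reads. The level at P14 was 24.3-fold that at P28 in run 1 and 22.5-fold in run 2, and that at E13 was 184-fold and 124-fold that at P28. The ratio of E10 to P28 was 885 in run 1 and 14.1 in run 2, so that its size depended on the E10 library. The mean of the runs at P0 was 775 ± 530 TPM (SD, n = 2), a spread that also held the values of E17, P3 (941 TPM) and P7 (393 TPM).

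**Figure D1:**
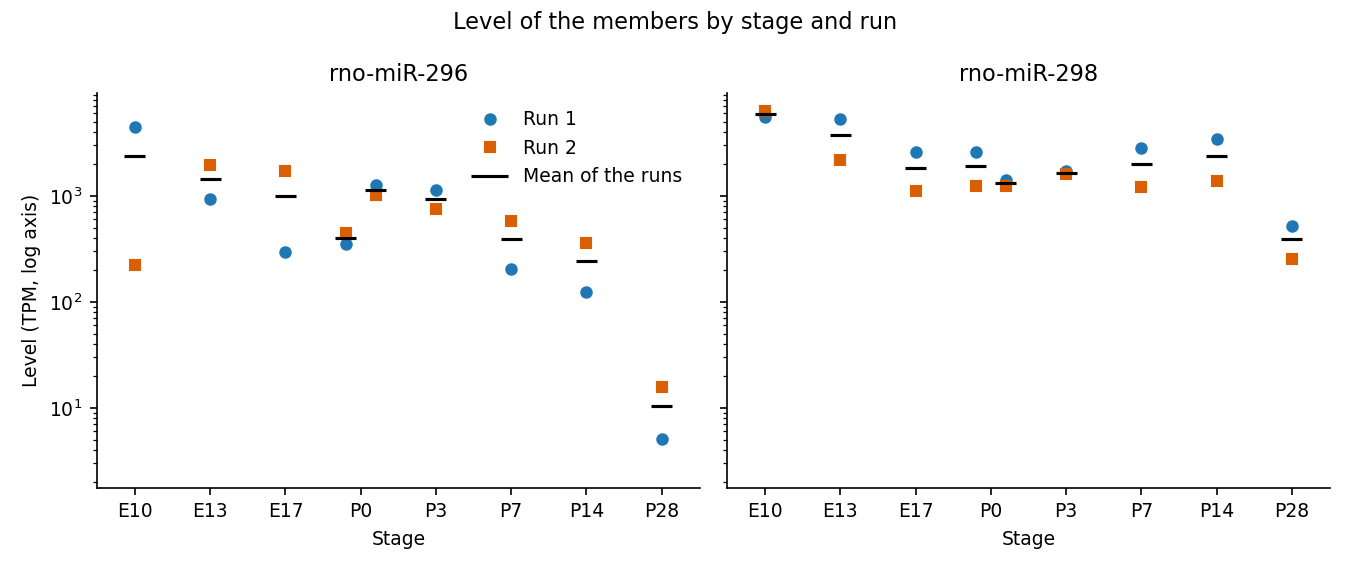
Levels of rno-miR-296 and rno-miR-298 (TPM, log axis) by stage; each point is 1 library and the black bars mark the means of the runs. Both are lowest at P28, and the E10 libraries of rno-miR-296 lie at 4514 and 224 TPM, farther apart than those of rno-miR-298.

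The trend over development was tested as the slope of log2 counts on the stage order, in which E10 is 1 and P28 is 8, with the edgeR quasi-likelihood test and Benjamini-Hochberg adjustment over 145 tested sequences. Neither member passed the threshold of an adjusted p under 0.05. The slope of rno-miR-296 was -0.48 per stage (SE 0.24, adjusted p = 0.118) and that of rno-miR-298 was -0.20 per stage (SE 0.11, adjusted p = 0.167). Among the tested sequences 70 of 145 passed (48.3%), 43 of them falling (29.7%) and 27 rising (18.6%), and the median slope was -0.08. Both slopes depended on P28. Without it the slope of rno-miR-296 was -0.22 (adjusted p = 0.346) and that of rno-miR-298 was -0.08 (adjusted p = 0.536), whereas without E10 they were -0.65 (adjusted p = 0.0784) and -0.19 (adjusted p = 0.311). The omission of E10 run 2 alone, used here and throughout, was chosen after the data had been seen. With it left out, so that E10 came from run 1, rno-miR-296 fell by 0.56 per stage (adjusted p = 0.0468, edgeR) and the slope of rno-miR-298 was -0.17 (adjusted p = 0.247). With each run taken as a library of its own and the run number as a block, both slopes passed (-0.60 and -0.22, adjusted p = 0.0232 for each, edgeR), in a fit that counts technical runs of 1 tissue sample as separate samples. With the RNA of each library scaled by its total reads alone, both slopes passed (-0.60, adjusted p = 0.0162, and -0.34, adjusted p = 0.0174), while the median of all sequences moved to -0.20. The slopes lay 0.41 and 0.14 below the median with library totals alone, against 0.40 and 0.12 below it with TMM scaling.

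The opposite arms were tested in a table of the RefSeq mature miRNAs, in which 212 of 477 passed (44.4%), 130 falling (27.3%) and 82 rising (17.2%). rno-miR-296-5p fell by 0.55 per stage (SE 0.14, adjusted p = 0.00539, edgeR), but 7053 of its 7307 reads at E10 came from run 2, and with that library left out its slope was -0.23 (adjusted p = 0.302). rno-miR-298-3p fell by 0.38 per stage (SE 0.11, adjusted p = 0.0148, edgeR), and by 0.39 with E10 run 2 left out (adjusted p = 0.0111). The slopes of the members themselves were -0.53 and -0.23 there, with adjusted p of 0.116 and 0.131, and -0.66 and -0.26 with E10 run 2 left out, with adjusted p of 0.0202 and 0.0768. Whether the slopes of the arms of 1 hairpin differ was not tested.

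Almost all reads of rno-miR-296 were a single tag that stops 4 nt short of the mature end. Its leading tags are shown because the level of this miRNA is in effect the level of the first of them; capitals mark bases past the mature end.
18 nt: gaggguuggguggaggcu
full length: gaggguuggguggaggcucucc
19 nt: gaggguuggguggaggcuc
with added AU: gaggguuggguggaggcucuccAU
The 18-nt tag held 181062 of 186902 reads (96.9%), while the full-length sequence held 928 reads (0.497%), the 19-nt tag 768 (0.411%) and the tag with AU 432 (0.231%). The full-length count came mostly from 1 library: with E10 run 2 left out, 96 of 183220 reads were full length (0.0524%), and the tag with AU held 0.0786%. The minimum tag length was also 18 nt, so that a form shorter than this could not be listed. The 18-nt tag occurred in 1 of 419 rat hairpins of RefSeq, Mir296, and in 0 of 33469 promoter windows on either strand; no genome was searched, and whether it arises elsewhere was not tested. Among 347 RefSeq miRNAs with at least 1000 reads, rno-miR-296 had the highest share of 18-nt reads (96.9%), followed by rno-miR-27a-3p (89.8%), and the median was 2.85%. The shares of rno-miR-298, rno-miR-296-5p and rno-miR-298-3p were 13.6%, 7.28% and 1.19%, at ranks 60, 102 and 239. Without E10 run 2 they were 17.4%, 22.6% and 2.01%, at ranks 63, 51 and 203 among the miRNAs that still had at least 1000 reads (median 3.77%), and rno-miR-296 again ranked first (98.7%).

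The exception was E10 run 2. There the 18-nt tag held 269 of 3682 reads of rno-miR-296 (7.31%, 95% Wilson interval 6.51 to 8.19), against 49410 of 49850 reads (99.1%) in run 1 of the same tissue sample and 94.1% to 99.3% in the other 16 libraries. In E10 run 2 the reads identical to the mature sequence made up 22.6% and those past its end 51.8%. The log2 difference between the E10 runs was 4.33 for rno-miR-296, the 4th largest in size of all RefSeq miRNAs compared at E10, and -0.18 for rno-miR-298, against a median size of 1.09. The cause of the difference between the runs was not tested. The intervals of shares hold for counting error alone, because PCR copies molecules before they are read.

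Counted without the 18-nt reads, rno-miR-296 was rare and its order over the stages was clearer. In tags of at least 19 nt its level in run 1 was 38.8 TPM at E10, 43.3 at E13, 17.3 at E17, 11.3 and 11.6 at P0, 9.88 at P3, 4.09 at P7, 1.02 at P14 and 0.10 at P28. In run 2 it was 207 TPM at E10, 28.0 at E13, 18.7 at E17, 7.47 and 8.88 at P0, 13.7 at P3, 3.83 at P7, 2.59 at P14 and 0.121 at P28. On a log scale the runs lay closer together than with all tags at every stage but P0, and from E17 to P28 each stage was lower than the one before in both runs, apart from P3 in run 2. The P28 values were 1 and 2 reads. In these tags rno-miR-296 fell by 0.85 per stage (SE 0.16, adjusted p = 0.00144, edgeR), and by 0.69 with E10 run 2 left out (adjusted p = 0.0170, edgeR), while rno-miR-298 had a slope of -0.21 (adjusted p = 0.160). This minimum length was chosen after the data had been seen.

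**Figure D2:**
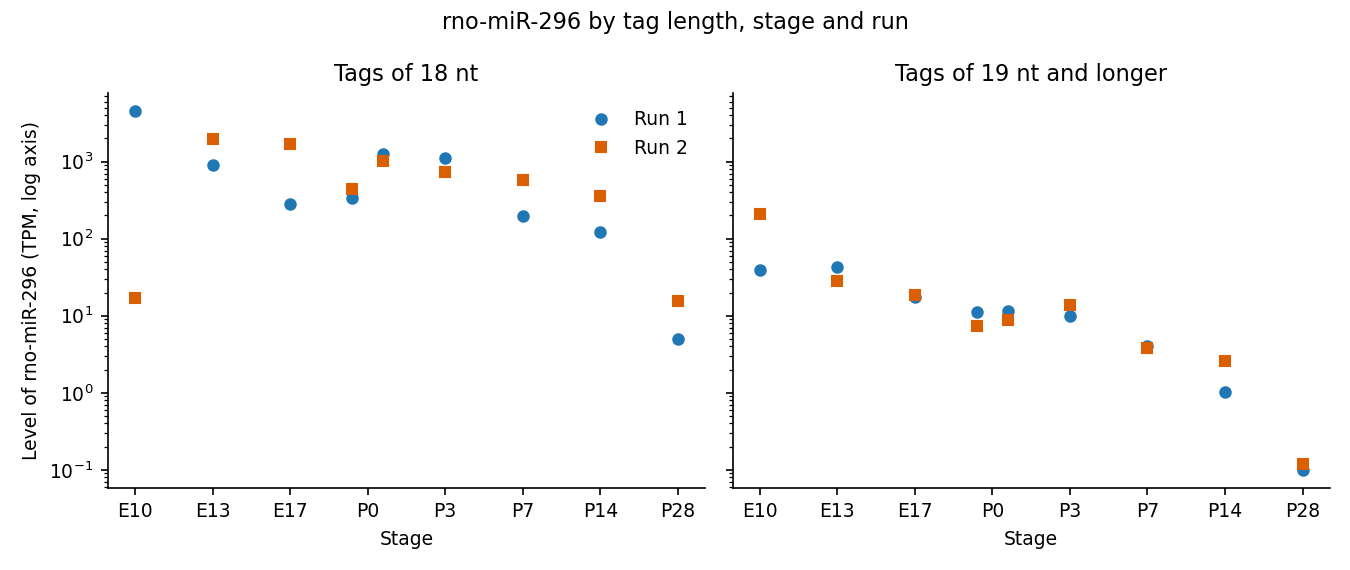
Level of rno-miR-296 (TPM, log axis) by stage in tags of 18 nt and in tags of at least 19 nt; each point is 1 library. The 18-nt tag holds nearly all reads except in E10 run 2, and the longer tags go from 207 and 38.8 TPM at E10 to 0.121 and 0.10 TPM at P28.

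The ratio of the members does not depend on the total of a library. In counts summed over the runs the log2 ratio of rno-miR-298 to rno-miR-296 was 1.62 at E10, 1.06 at E13, 0.57 at E17, 1.99 and 0.21 in the P0 tissue samples, 0.84 at P3, 1.92 at P7, 2.62 at P14 and 4.91 at P28. rno-miR-298 thus exceeded rno-miR-296 in each tissue sample, and P28 lay above all others. Pearson's correlation with the stage order was 0.68 (exact two-sided permutation p = 0.0363, n = 9) and Spearman's was 0.586 (exact p = 0.103), and r without E10 and P28 was 0.654. After Benjamini-Hochberg adjustment over the family of 11 measures of the members, p was 0.0570 and missed the threshold of 0.05. The runs differed: r was 0.73 in run 1 (adjusted exact permutation p = 0.0989) and 0.14 in run 2 (adjusted exact permutation p = 0.718), where the log2 ratio at E10 was 4.81 against 0.30 in run 1. Without E10, r was 0.80 (adjusted exact permutation p = 0.0264), and with E10 run 2 alone left out it was 0.81 (adjusted exact permutation p = 0.0259). At E17 in run 2 rno-miR-296 was the higher member, with a log2 ratio of -0.60.

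In tags of at least 19 nt the log2 ratio was 5.37 at E10, 6.32 at E13, 6.21 at E17, 7.20 and 6.85 at P0, 6.98 at P3, 8.40 at P7, 9.32 at P14 and 11.16 at P28. This ratio rose with the stage order (r = 0.946, exact permutation p = 2.2e-05, rho = 0.954, adjusted p = 0.000243, n = 9), and r was 0.932 without E10 and P28 and 0.857 with E10 run 2 left out (adjusted exact permutation p = 0.00240). The P28 value rests on the 3 reads of rno-miR-296 named above.

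**Figure D3:**
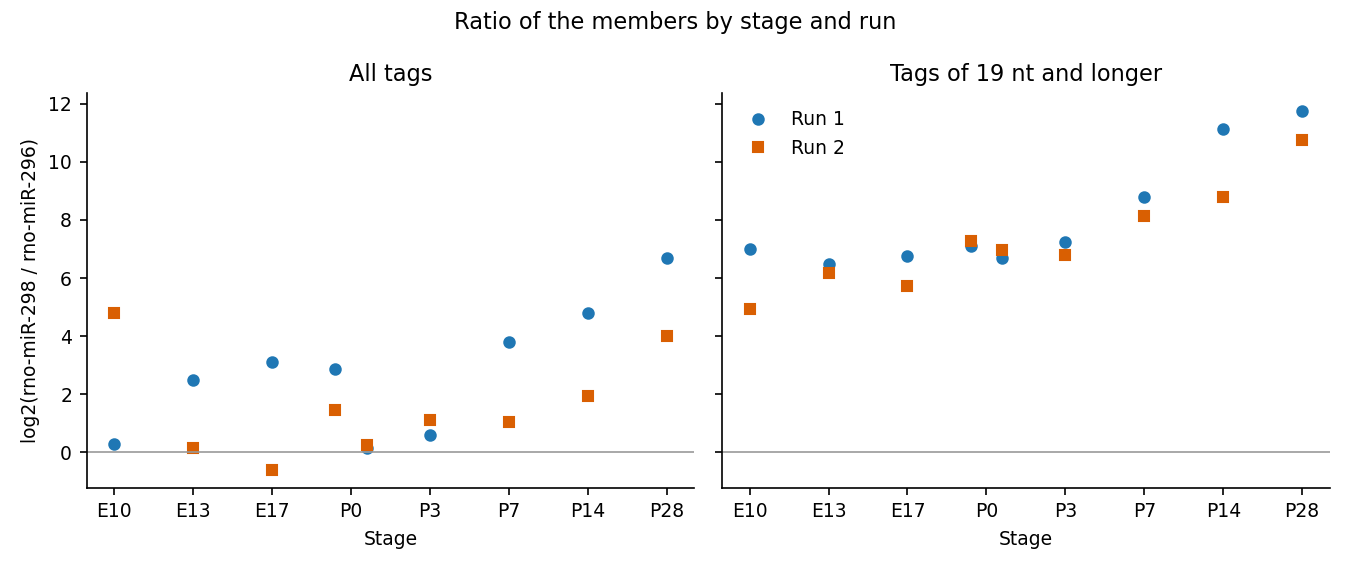
log2 ratio of rno-miR-298 to rno-miR-296 by stage for all tags and for tags of at least 19 nt, with each run as a point. With all tags the E10 runs lie at 0.30 and 4.81, and in the longer tags all 18 libraries lie above 0, those of P28 and P14 in run 1 highest.

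rno-miR-298 had no single dominant end. Its leading tags are shown because they separate into shortened forms and forms with added A and U; capitals mark bases past the mature end.
20 nt: ggcagaggagggcuguucuu
21 nt: ggcagaggagggcuguucuuc
18 nt: ggcagaggagggcuguuc
19 nt: ggcagaggagggcuguucu
with added AU: ggcagaggagggcuguucuucccAU
with added A: ggcagaggagggcuguucuucccA
with added AA: ggcagaggagggcuguucuucccAA
Of 462922 reads in 292 distinct tags, these held 23.5%, 15.6%, 13.3%, 12.1%, 5.90%, 4.46% and 3.52%, and the sequence identical to the mature one held 0.863%. Omission of E10 run 2 left 359851 reads, of which the tags with AU, A and AA held 3.96%, 0.684% and 2.01% and the identical sequence 0.386%. Few reads of rno-miR-298 thus ended at the mature end itself. In run 1 29.4% of reads ended 3 nt short, 0.421% at the end and 7.82% 3 nt past it. In run 2 the shares were 19.1%, 1.39% and 17.3%. With E10 left out of both runs they were 32.7%, 0.269% and 3.27% in run 1 and 30.2%, 0.528% and 6.75% in run 2. Likewise 15.8% of reads ended past the mature end in run 1 and 43.6% in run 2, and without E10 the shares were 6.73% and 15.3%. The share past the end was higher in run 2 than in run 1 in 7 of 9 tissue samples, all but P0 replicate 2 (23.2% in run 1 and 18.5% in run 2) and P3 (19.2% and 16.1%). Reads past the mature end made up 30.7% of all reads of rno-miR-298, against a median of 15.0% over the 347 miRNAs, at rank 123. Without E10 run 2 they made up 15.6%, at rank 146, against a median of 11.7% over the miRNAs that still had at least 1000 reads.

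**Figure D4:**
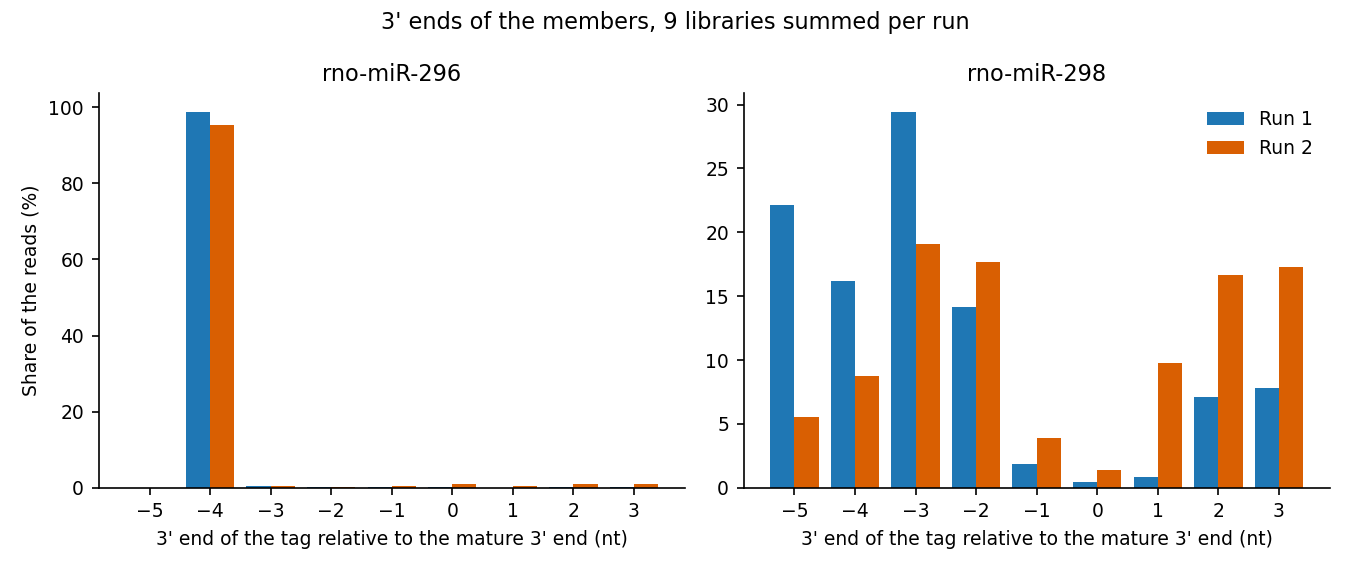
Share of reads (%) of rno-miR-296 and rno-miR-298 by 3' end position in nt relative to the mature end, for each run. rno-miR-296 has a single peak 4 nt short of the end, while rno-miR-298 has a group 2 to 5 nt short and another 1 to 3 nt past the end, the latter higher in run 2 (at 3 nt past the end 17.3% against 7.82% in run 1, and 6.75% against 3.27% without E10).

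Most bases past the end of rno-miR-298 were A and U that the hairpin does not hold at that place. The hairpin continues with UUG. Of 141937 reads past the end, 86.2% carried only A and U in an order other than that of the hairpin, 5.38% were identical to the hairpin and 8.39% carried other bases. AU was found in 19.8% of these reads, A in 14.9% and AA in 12.1%. The libraries other than E10 run 2 held 56167 reads past the end, of which 89.8% carried only A and U in another order and 2.46% were identical to the hairpin, with AU in 26.5%, A in 4.70% and AA in 14.0%. For rno-miR-296, whose hairpin continues with UGA, 78.9% of 2901 reads past the end carried only A and U in another order, 3.90% were identical to the hairpin and 17.2% carried other bases. In the libraries other than E10 run 2 the shares were 78.6%, 2.51% and 18.9% of 995 reads.

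The share of rno-miR-298 reads past the end was 66.6% at E10, 10.5% at E13, 7.79% at E17, 12.5% and 20.6% in the P0 tissue samples, 17.5% at P3, 7.97% at P7, 2.95% at P14 and 1.91% at P28. E10 lay far above the others, and P14 and P28 lay below them. This share fell with the stage order (r = -0.674, exact permutation p = 0.0217, rho = -0.653, exact p = 0.0631, adjusted p = 0.0398, n = 9), but r was -0.332 without E10 and P28 and the adjusted exact permutation p was 0.228 without E10. The E10 value joins 38.7% in run 1 with 83.2% in run 2, and with run 2 left out the adjusted exact permutation p was 0.0577. Within run 1 r was -0.57 (adjusted exact permutation p = 0.177) and within run 2 it was -0.72 (adjusted exact permutation p = 0.0153). The mean 3' end position, with 0 at the mature end, was 0.580 at E10 and -3.53 at P28 (r = -0.705, exact permutation p = 0.0204, adjusted p = 0.0398, n = 9), and it too lost the call without E10 (adjusted exact permutation p = 0.228) and with E10 run 2 alone left out (adjusted exact permutation p = 0.0577).

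For rno-miR-296 the share past the end was 3.94% at E10, 0.954% at E13, 0.651% at E17, 0.780% and 0.435% at P0, 0.416% at P3, 0.161% at P7, 0.336% at P14 and 0 of 314 reads at P28, which allows up to 0.955%. The E10 value joins 0.403% in run 1 with 51.8% in run 2, so that in run 1 E10 lay below E13 (1.89%) and E17 (2.92%). The share fell with stage (r = -0.731, exact permutation p = 0.000794, rho = -0.954, adjusted p = 0.00291, n = 9), and r was -0.906 without E10 (adjusted exact permutation p = 0.0111). With E10 run 2 alone left out it no longer passed (r = -0.71, adjusted exact permutation p = 0.0601), nor did it in either run by itself (r = -0.57 in each, adjusted exact permutation p = 0.177 in run 1 and 0.192 in run 2). The mean 3' end moved from -3.66 at E10 to -3.99 at P28 (r = -0.719, exact permutation p = 0.00131, adjusted p = 0.00361, n = 9), where the E10 value joins -3.97 in run 1 with 0.570 in run 2. It passed within neither run (adjusted exact permutation p = 0.231 and 0.192) and not with E10 run 2 left out (r = -0.63, adjusted exact permutation p = 0.113). The share of reads identical to the mature sequence passed for neither member, with r of -0.593 for rno-miR-296 (adjusted exact permutation p = 0.0883, n = 9) and -0.607 for rno-miR-298 (adjusted exact permutation p = 0.101, n = 9).

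The 5' end sets the seed, and 98.1% of rno-miR-298 reads had the mature 5' end. Shifted reads began mostly 2 nt late (1.21% of reads), with 0.435% 1 nt late and 0.133% 3 nt late. The shifted share was 2.76% at E10, 2.02% at E13, 1.83% at E17, 1.11% and 1.44% at P0, 1.32% at P3, 0.825% at P7, 0.709% at P14 and 0.625% at P28. With the runs summed, every embryonic sample thus lay above every postnatal one. This did not hold in run 1, where the share of P0 replicate 2 was above that of E17. There 1378 of 1408 TPM had the mature 5' end in P0 replicate 2, against 2523 of 2573 TPM at E17. The shifted share fell with stage (r = -0.946, exact permutation p = 8.27e-05, rho = -0.971, adjusted p = 0.000909, n = 9), with r of -0.943 without E10 and P28, -0.85 in run 1 (adjusted exact permutation p = 0.0121) and -0.88 in run 2 (adjusted exact permutation p = 0.0153). With E10 run 2 left out, where the share was 1.49% against 4.88% in run 1, r was -0.81 (adjusted exact permutation p = 0.00236). A tag that starts late can be listed with fewer of the short 3' ends, since tags are at least 18 nt long, which ties this share in part to the 3' ends. Among tags whose 3' end could be listed with every start, the shifted share ranged from 1.67% at P14 to 4.15% at E13, with 2.86% at E10 and 2.14% at P28, and r was -0.68 (adjusted exact permutation p = 0.0702, n = 9), which missed the threshold.

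For rno-miR-296 the shifted share was 1.01% at E10, 0.689% at E13, 0.552% at E17, 0.638% and 0.256% at P0, 0.354% at P3, 0.261% at P7, 0.160% at P14 and 0 of 314 reads at P28, which allows up to 0.955%. The E10 value joins 0.213% in run 1 with 11.8% in run 2, while E13 and E17 had 1.74% and 2.40% in run 1. The share fell with stage (r = -0.929, exact permutation p = 0.000298, rho = -0.904, adjusted p = 0.00164, n = 9) and r was -0.90 without E10 (adjusted exact permutation p = 0.0111), but it did not pass with E10 run 2 alone left out (r = -0.61, adjusted exact permutation p = 0.117), in run 1 (r = -0.48, adjusted exact permutation p = 0.231) or in run 2 (r = -0.59, adjusted exact permutation p = 0.0884). Among its reads that end where every start could be listed, the shifted share was between 14.0% at E10 and 40.6% at E17, and P28 had no such read. The low shifted share of rno-miR-296 as a whole is thus a share of reads most of which ended where a later start would have left them under the minimum length.

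**Figure D5:**
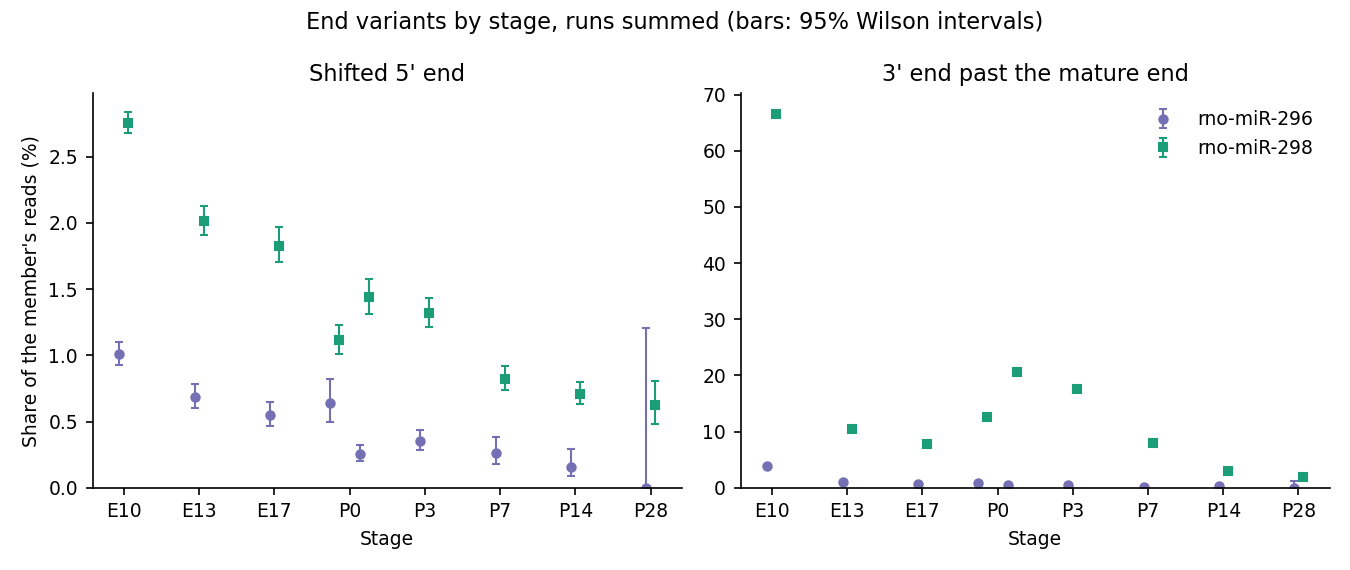
End variants of rno-miR-296 and rno-miR-298 by tissue sample, as shares of the reads of each miRNA (%) over both runs, with 95% Wilson intervals as bars. The share of rno-miR-298 past the mature end is 66.6% at E10 and 1.91% at P28, and its shifted 5' share goes from 2.76% to 0.625%.

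With all tags counted, the opposite arms were the lesser strand of each hairpin in 17 of 18 libraries for Mir296 and in all 18 for Mir298. As a share of the reads of both arms, rno-miR-298-3p made up 5.61% at E10, 1.78% at E13, 2.07% at E17, 1.75% and 2.50% at P0, 2.55% at P3, 2.04% at P7, 1.65% at P14 and 3.46% at P28, with no trend past the threshold (r = -0.320, adjusted exact permutation p = 0.421, n = 9). rno-miR-296-5p made up 12% at E10, 1.27% at E13, 1.53% at E17, 5.90% and 1.68% at P0, 2.77% at P3, 2.12% at P7, 2.90% at P14 and 29.1% at P28 (r = 0.393, adjusted exact permutation p = 0.353, n = 9). The E10 value joins 0.507% in run 1 with 65.7% in run 2. The level of rno-miR-296-5p was 23.0 and 430 TPM in the E10 runs and between 4.10 and 42.9 TPM in the other libraries. In E10 run 2, 90.7% of its reads were 1 tag identical to the mature sequence, against 21.7% in run 1. At P28 the arms of Mir296 had 129 and 314 reads. In tags of at least 19 nt the share of rno-miR-296-5p was between 32.6% and 97.3% and rose with stage (r = 0.737, exact permutation p = 0.0221, rho = 0.636, exact p = 0.0716, adjusted p = 0.0304, n = 9), also with E10 run 2 left out (r = 0.938, adjusted exact permutation p = 0.00109). In these tags it was the larger arm of Mir296 in every tissue sample but E13 (32.6%) and E17 (43.1%). Which arm of Mir296 was the lesser thus depended on the 18-nt reads. At E10 the share of 65.4% joined 33.4% in run 1 with 67.4% in run 2.

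rno-miR-298-3p was read mostly from 1 nt before the RefSeq 5' end, and its leading tag is shown for that reason, with the base past the mature 3' end in capitals.
rno-miR-298-3p, leading tag: gaggaacuagccuucucucugcuU
This tag held 26.0% of its reads, and 92.2% of reads began with the additional g, which moves the seed by 1 base against the RefSeq sequence. Reads past its 3' end made up 75.0%, rank 25 of the 347 miRNAs, and U, UU and UUU were the additions in 36.1%, 27.4% and 24% of them. In the libraries other than E10 run 2, 88.6% began with the additional g and 65.1% ended past the 3' end. The hairpin continues with ua, so that the first U can come from the hairpin while UU cannot. Its level was 284 and 404 TPM in the E10 runs, 96.8 and 39.5 TPM at E13 and 16.8 and 10.3 TPM at P28.

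Single mismatches were counted in reads with the mature 5' end, with positions from 1 at that end and the base of the mature sequence first. They made up 3.94% of rno-miR-296 reads (95% Wilson interval 3.86 to 4.03) and 3.30% of rno-miR-298 reads (3.25 to 3.35), in 50 and 57 different changes. The most frequent change in rno-miR-296 was U11G, in 1.15% of reads (1.10 to 1.20) and in 18 of 18 libraries, followed by A2C (0.354%) and G8U (0.280%). As a share of the reads that reach the position, it was C18U in rno-miR-298 (0.384%), followed by G15U (0.247%) and G8U (0.198%). G-to-U changes made up 30.5% of mismatched rno-miR-298 reads and U-to-G changes 30.7% of those of rno-miR-296, while A-to-G changes, the kind left by editing of adenosine, made up 4.85% and 3.42%. Mismatches were more frequent in run 1 than in run 2 for rno-miR-296 (4.83% and 3.11%) and for rno-miR-298 (4.81% and 1.96%). Sequencing errors and edited bases cannot be told apart in tags without base qualities.

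Over the 9 tissue samples, and with log2(TPM + 1) of 60 sequences with a mean of at least 10 TPM, rno-miR-298 was second in likeness to rno-miR-296 (r = 0.833), after Candidate 55 (r = 0.852) and before rno-miR-320 (r = 0.828). The sequence most like rno-miR-298 was rno-miR-296 (r = 0.833), followed by rno-miR-3559-5p and rno-miR-130b (both r = 0.768). These values describe levels that share libraries and depth, and no test was made of them.

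rno-miR-296 belongs to the miRNAs that the study showed as gradually decreasing, a list chosen on these samples and so no independent evidence of its direction. The study also measured the list by qPCR, which was not analysed here. Of the 9 miRNAs on this list, 7 fell, 0 rose and 2 did not pass, with a median slope of -0.52 against -0.08 over the 145, of which 29.7% fell and 18.6% rose. The members that did not pass were rno-miR-296 and the sequence given for rno-miR-99b (slope -0.05, adjusted p = 0.873, edgeR), whose primer bases differ from the RefSeq rno-miR-99b. rno-miR-92a of the oncogenic miR-17 cluster fell by 0.63 per stage (adjusted p = 0.000469, edgeR) and its relative rno-miR-92b by 0.42 (adjusted p = 0.00906, edgeR).

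The Dlk1-Dio3 locus, another imprinted region that encodes many miRNAs in brain, gave a comparison with the Gnas locus. Of its 77 RefSeq mature names, 75 were tested, of which 15 rose, 3 fell and 57 did not pass, with a median slope of 0.17 against -0.09 over the 477 tested (17.2% rising and 27.3% falling). The 3 with the highest level did not pass, namely rno-miR-127-3p (slope 0.26, adjusted p = 0.0503, edgeR), rno-miR-382-3p (slope 0.17, adjusted p = 0.167, edgeR) and rno-miR-411-5p (slope 0.31, adjusted p = 0.0742, edgeR). Of the 4 arms at the Gnas locus, 0 rose and 2 fell, the opposite arms, with a median slope of -0.45; with E10 run 2 left out the 2 that fell were rno-miR-296-3p and rno-miR-298-3p. Whether the loci differ was not tested. Of 4 names of that locus in the table of the study, rno-miR-409-5p rose by 0.45 per stage (adjusted p = 0.00404, edgeR), rno-miR-494 fell by 0.50 (adjusted p = 0.0242, edgeR) and 2 did not pass, beside 18.6% rising and 29.7% falling over the 145 sequences of that table.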

How the data were processed

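Rat cortical small RNA was size-selected, ligated to adapters, amplified and sequenced by the Solexa technique. The authors deposited, for each run of each tissue sample, the clean tags with the count of reads per unique tag, without normalization, mapping or annotation, after removing adaptors and low-quality reads. The submitters also mapped reads to rn4 with SOAP, which entered no value here.

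TPM was the reads assigned to a miRNA divided by the clean reads of the library. Mature sequences came from the primers and list of changes of the study and from RefSeq (GRCr8, 692 distinct rat sequences); 0 columns of per-sample values were left out. Counts of both runs were summed per tissue sample and fitted with edgeR 4.0.16 (limma 3.58.1, R 4.3.3; TMM, quasi-likelihood test of the slope on stage order), keeping sequences that reached 10 counts in 2 or more tissue samples; DESeq2 1.42.0 was an alternative. TMM factors ranged from 0.599 in P0 replicate 2 to 1.88 at E10, and edgeR's biological coefficient of variation was 0.609. End variants, arm shares and the log2 ratio were compared with the stage order by exact permutation of the 9 tissue samples (362880 orders, two-sided), adjusted over 11 measures. The other steps were run in Python 3.11.15 with scipy 1.17.1, pandas 2.3.3, numpy 2.4.6 and, for plots, matplotlib 3.10.9. Shares have 95% Wilson intervals, and a share of 0 a limit of 3 reads. The scripts were tested on simulated data.

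Groups came from the sample labels. The study calls the P0 tissue samples independent, but the labels do not name animals. Only P0 has 2 tissue samples, so p-values do not measure a spread between animals of 1 stage. The edgeR p-values rest on how tissue samples depart from a line over the stage order, which can join stage, tissue and run effects. The permutation p-values rest on reordering the tissue samples. edgeR's coefficient of variation rests on the same departures from the line. Run number was not used as a block, since the run 1 minus run 2 differences correlated above 0.1 in 30 of 36 pairs of tissue samples (median r 0.334) and not in all; the fit with it is given beside the slopes. The miRNAs named are both members, their opposite arms, the 3 sequences most like each member in level and at most 3 examples of each list by mean TPM. Single values of Dlk1-Dio3 miRNAs in the table of the study and of markers summed with others were named after their values were seen. The members, lists and tests were chosen with earlier results of these data known.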

Additional observations from a re-analysis of the deposited data

Results flagged for a closer look

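Some reads that begin with the first 18 bases of a member lie outside the counts above, because they leave the mature sequence before its end or reach more than 3 nt past it. For rno-miR-298, 136929 reads had a shortened 3' end followed only by A and U, which is 21.9% of all reads with these 18 bases and 80.2% of the 170789 that were left out. The share was 15.1% in run 1 and 26.7% in run 2. The most frequent forms ended 2 nt short and carried A (27441 reads), ended 3 nt short and carried A (11635 reads) or U (11284 reads), or ended 1 nt short and carried A (11382 reads). For rno-miR-296, 5467 such reads were found, 76.2% of the 7179 left out, and the most frequent ended 4 nt short and carried AA (1027 reads), AU (723 reads) or AAA (616 reads). These values drew attention because they exceed the limit that a count of 0 allows (3 reads) in data that no comparison used. The other classes of reads left out exceed so low a limit as well, so passing it is no measure of their weight. No control sample exists for these values, and the enzyme or step that gave the added bases was not tested.

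Of the same reads left out, those that reach more than 3 nt past the mature end numbered 582 for rno-miR-296 (the longest by 11 nt) and 18557 for rno-miR-298 (the longest by 13 nt). Leaving out E10 run 2 kept 171 and 6835 of these. The reads with a shortened end and only A and U then numbered 3583 for rno-miR-296 and 101132 for rno-miR-298 (21.5% of reads with its 18 bases, against 21.9%).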

How the results depend on the processing

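The cause of the changes below was not tested unless stated. The slope of rno-miR-296, which missed the threshold, passed it with library totals alone (-0.60), with DESeq2 (-0.45), in tags identical to the mature sequence (-1.14) and in tags of at least 19 nt (-0.85), and that of rno-miR-298 with library totals alone (-0.34) and in identical tags (-0.69). With run number as a replicate block, which counts each run as a library of its own, both passed (-0.60 and -0.22, adjusted p = 0.0232, edgeR) and 70 of 124 sequences were called. Both slopes stayed negative under every alternative run. Sequences called numbered 31 in run 1 alone, 43 in identical tags and 212 in the larger RefSeq table, against 70; library totals alone gave 82 (18 rising and 64 falling, against 27 and 43). Leaving out 1 tissue sample gave slopes of -0.65 to -0.22 for rno-miR-296 and -0.28 to -0.08 for rno-miR-298, and 56 to 71 calls.

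The log2 ratio passed in tags of at least 19 nt (r = 0.946), without E10 and without P3 (range of r over omissions 0.44 to 0.80); with identical tags it could not be computed, since P28 had no identical rno-miR-296 read. Within runs, the following lost the call. For rno-miR-296, r of the shifted 5' share was -0.48 in run 1 and -0.59 in run 2, of the share past the 3' end -0.57 and -0.57, and of the mean 3' end -0.50 and -0.57. For rno-miR-298, in run 1, r of the share past the end and of the mean 3' end was -0.57 and -0.57. Of the alternatives run, the shifted 5' share of rno-miR-298 lost it only where 3' ends allowed every start (-0.68). The rno-miR-296-5p share turned to -0.33 in run 2 and passed in tags of at least 19 nt (0.74). Mismatch shares moved between runs, from 4.83% to 3.11% for rno-miR-296 and from 4.81% to 1.96% for rno-miR-298. The highest level of rno-miR-296 was 1962 TPM in run 2. With E10 run 2 alone left out, the slope of rno-miR-296 passed (-0.56, and -0.69 in tags of at least 19 nt), as did the log2 ratio (0.81, and 0.86) and the rno-miR-296-5p share in tags of at least 19 nt (0.94). Calls were then lost for rno-miR-296 in the shifted share (-0.61), the share past the end (-0.71) and the mean 3' end (-0.63), and for rno-miR-298 in the share past the end (-0.72) and the mean 3' end (-0.72).

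Over single omissions r ranged for rno-miR-296 from -0.71 to -0.31 (identical share; passed without E13, E17 or P0 replicate 1), -0.97 to -0.90 (shifted share), -0.91 to -0.72 (share past the end; lost without P14), -0.87 to -0.70 (mean 3' end; lost without P7 or P14) and -0.48 to 0.64 (opposite arm; -0.48 without P28). For rno-miR-298 it ranged from -0.75 to -0.30 (identical share; passed without E13), -0.97 to -0.94 (shifted share), -0.79 to -0.54 (share past the end), -0.81 to -0.55 (mean 3' end; both lost without E10, P7, P14 or P28) and -0.60 to 0.49 (opposite arm; 0.49 without E10). Depth limits P28, with 314 reads of rno-miR-296, of which 3 were longer than 18 nt.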
